A study of Mus musculus with 9 samples.

Results

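The comparison described here sets regulatory T (Treg) cells that lack both Usp22 and Usp21 against wild-type (WT) Treg cells, across every gene that could be tested. Its members are the 3 libraries of the double knockout (dKO) columns and the 3 libraries of the WT columns in a table of raw counts, 6 of the 9 libraries in the series. The labels describe the dKO animals as having a Treg knockout of Usp21 and Usp22 and the remaining 3 libraries as a Usp21 knockout (Usp21 KO). All 3 groups, WT included, were sorted from spleen as natural Treg cells by a Foxp3 reporter carrying yellow fluorescent protein (YFP), which every group therefore shared. Deleted exons, the driver of the deletion, strain, age and sex are not given in the sources used here, and no group lacked Usp22 alone. The 3 samples of a group are numbered as separate biological samples, with no pooling stated.

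Treg cells are CD4 T cells that restrain other immune cells and depend on the transcription factor Foxp3. Usp22 is the deubiquitinase of the SAGA coactivator complex and removes ubiquitin from histone H2B and from other proteins, while Usp21 is a deubiquitinase that has been tied to the stability of the Foxp3 protein. In resting spleen most Treg cells are out of the cell cycle, and those that divide transcribe the genes of DNA replication first and those of chromosome segregation later.

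Total counts ran from 19571130 to 32458047 in the dKO libraries and from 21375211 to 40334577 in the WT libraries. Of 54232 genes in the table, 28792 had a count in some library and 14994 were tested. Levels are CPM, read counts scaled to the size of the library after correction for its composition, and log2 fold changes are dKO over WT with the standard error of edgeR's quasi-likelihood fit over all 9 libraries. A gene was called at a Benjamini-Hochberg adjusted p under 0.05 over all genes tested. One WT library, replicate 2, stood apart in carrying the least transcript of other spleen cells, as shown further on, and results that rest on it are given with and without it.

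Both targeted genes were low in the libraries labelled as lacking them. Usp22 (ENSMUSG00000042506, mm10 chromosome 11, 61151785 to 61175055) stood at 28.7, 25.8 and 21.6 CPM in dKO cells, against 71.0, 72.8 and 69.4 CPM in WT cells (log2 fold change -1.49 ± 0.11, adjusted p = 0.000213). Usp21 (chromosome 1, 171281945 to 171287991) stood at 29.1, 28.5 and 26.1 CPM in dKO cells and 66.2, 63.0 and 60.8 CPM in WT cells (-1.18 ± 0.09, adjusted p = 0.000197). Counts over a whole gene take in exons that a deletion may have left, so the remaining levels do not measure intact transcript. Foxp3 itself (chromosome X, 7573644 to 7595245) was lower, at 328, 372 and 299.8 CPM in dKO cells and 668, 689 and 622 CPM in WT cells (-0.99 ± 0.10, adjusted p = 0.00141). All 3 genes passed with each library left out in turn, with library totals as the scaling, with the replicate number as a block and with the other-cell score described further on as a covariate. The Foxp3 transcript was thus still present in every dKO library, at a lower level. Transcript of the YFP reporter used for sorting was not examined.

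Genes called between dKO and WT cells lay across the whole range of expression, but in an uneven way. Of the 14994 genes tested, 866 (5.78%) were called, 451 higher (3.01%) and 415 lower (2.77%) in dKO cells. Falls were most frequent among the genes with most reads. The median log2 fold change was 1.06 among genes that rose and -0.49 among genes that fell. More than 2-fold changes were seen in 238 of the genes that rose and 87 of those that fell, and changes under 1.5-fold in 114 and 265. With genes ranked by mean level and cut into 5 equal groups, 38 rose and 197 fell in the group with the most reads, whereas 156 rose and 58 fell in the group next to the lowest. The median over all genes tested was -0.01.

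**Figure D1:**
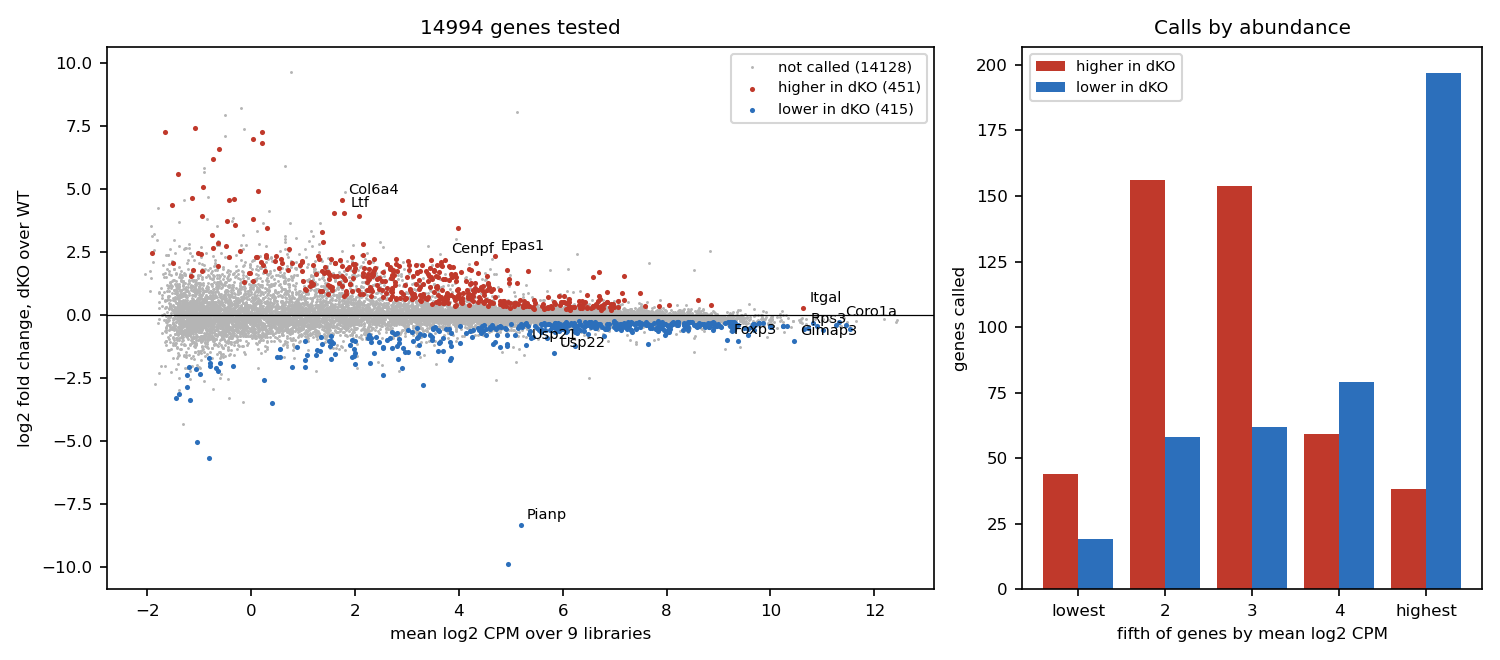
Left, log2 fold change (dKO over WT) of each gene tested against its mean log2 CPM over the 9 libraries, with genes called higher in red, genes called lower in blue and the others in grey. Right, the number of genes called in 5 equal groups by mean log2 CPM: 44, 156, 154, 59 and 38 rose and 19, 58, 62, 79 and 197 fell, from the lowest to the highest group.

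The number of genes called changed with the libraries in the fit. The 6 dKO and WT libraries on their own gave 2315 calls of 14706 genes tested (15.7%), 1232 higher (8.38%) and 1083 lower (7.36%), and 862 of the 866 genes were among them. Leaving Usp21 KO replicate 2 out of the shared fit gave 2340. Leaving out 1 dKO or WT library lowered the count to 193 without WT replicate 1, 315 without WT replicate 2, 379 without WT replicate 3, 337 without dKO replicate 1, 283 without dKO replicate 2 and 255 without dKO replicate 3. A set of 173 genes (1.15%), 98 higher and 75 lower, was called in the fit of all 9 libraries and in each of those 6 fits. The dKO and WT libraries did not overlap in any of the 866 genes called, nor in 35.9% of all genes tested.

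Scaling moved the balance of rises and falls more than any other choice of normalization. The 100 genes with the most reads took between 13.9% and 14.3% of counts in dKO libraries and between 15.6% and 15.8% in WT libraries. The trimmed-mean (TMM) factors that correct for such differences were between 1.04 and 1.05 in dKO and between 0.964 and 0.983 in WT libraries. With library totals alone, the median of all genes shifted to 0.09, and 807 genes were higher and 236 lower, a higher share of 77.4% in place of 52.1%. All 451 rises were also called with library totals, but only 236 of the 415 falls. The falls that were not, such as those of the actin regulators Coro1a and Pfn1 and of Myh9, the heavy chain of non-muscle myosin, were small ones in genes with many reads. Median-ratio factors, upper-quartile factors and TMM factors computed without markers of other cells gave 854, 841 and 862 calls.

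**Figure D2:**
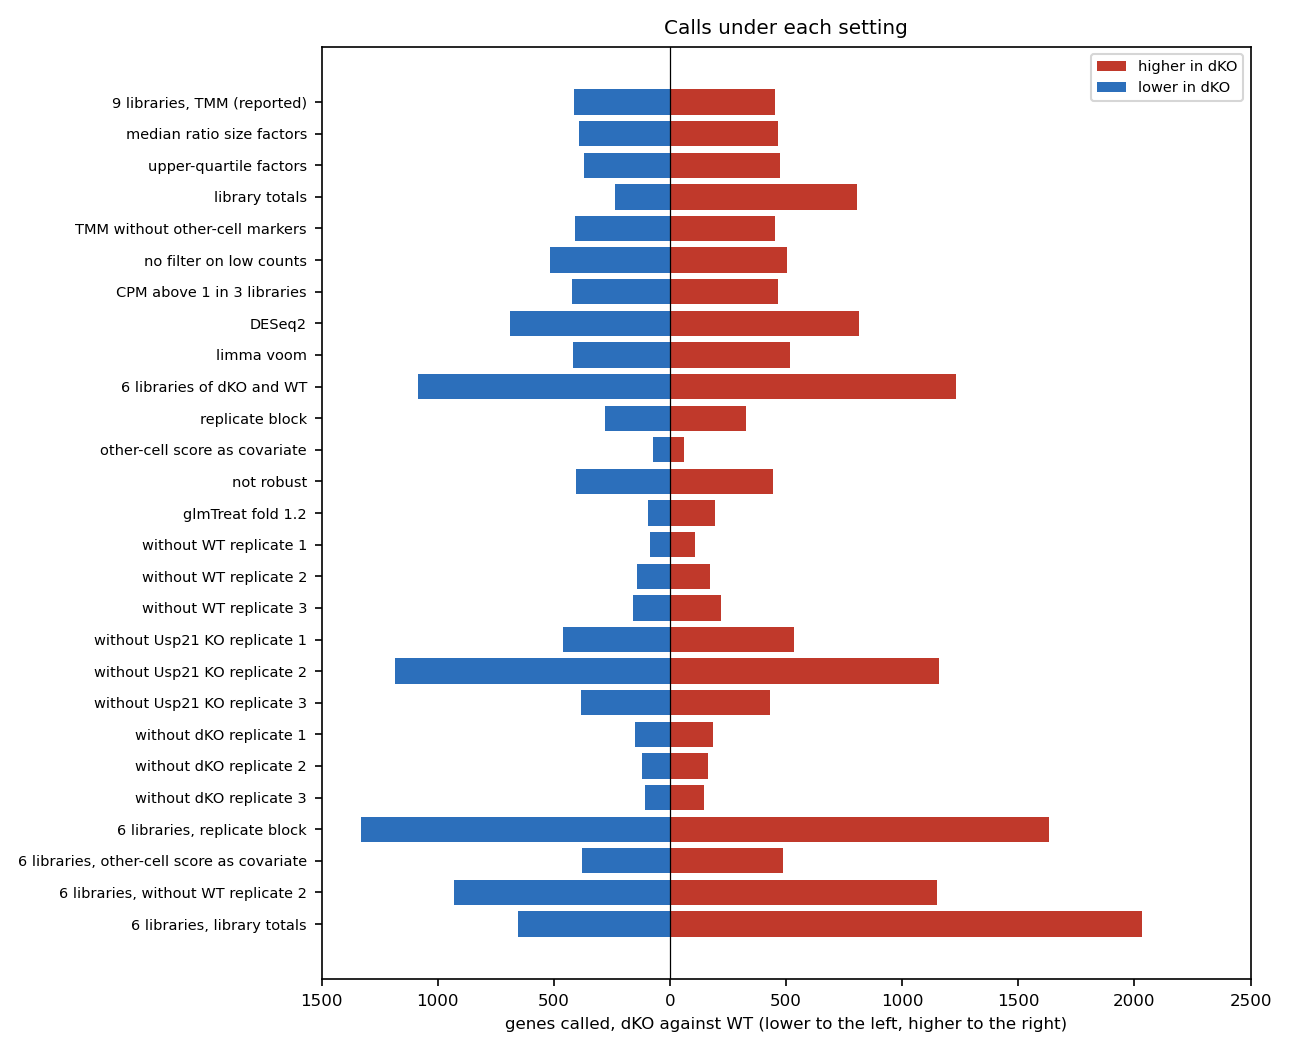
Number of genes called lower (blue, to the left) and higher (red, to the right) in dKO against WT under each setting. The fit of 9 libraries gave 415 lower and 451 higher, library totals 236 and 807, the other-cell covariate 73 and 61, and the 6 dKO and WT libraries alone 1083 and 1232.

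Transcripts listed as markers of other spleen cells were more plentiful in the dKO libraries. Summed over 12 marker lists, they came to 3409, 2570.5 and 3330.2 CPM in dKO libraries and 1849.8, 1205 and 1999.5 CPM in WT libraries. The mean log2 score of the lists, relative to the mean of all 9 libraries, was 0.73, 0.44 and 0.68 in dKO and -0.06, -1.21 and -0.02 in WT libraries. The groups did not overlap in either measure (exact permutation test, two-sided p = 0.1, the smallest that 20 arrangements allow). WT replicate 2 was the lowest of the 6 in both. Usp21 KO libraries ran from -0.93 to 0.41 in the score. Not every member followed the sums. Pecam1 of the stromal list had 226.1, 245.5 and 237.1 CPM in dKO libraries and 230.3, 242.8 and 249.8 CPM in WT libraries. How much of each sum came from other cells was not tested.

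By median log2 fold change the gap was widest for neutrophil markers (2.16), followed by erythroid markers (1.59), basophil markers (1.58), plasma cell markers and monocyte markers (1.49). The neutrophil list summed to 132.6, 63.7 and 92.4 CPM in dKO libraries, against 30.01, 8.37 and 25.3 CPM in WT libraries, and Ltf, Ngp and Camp, genes of neutrophil granules, were its 3 members called of 15 tested. Plasma cell markers summed to 795.7, 653.6 and 950.0 CPM in dKO libraries and 170.1, 63.4 and 291.3 CPM in WT libraries, with Igha, the constant region of IgA, at 610.3, 416 and 673 CPM in dKO and 87.9, 31.2 and 170.4 CPM in WT. None of the 11 plasma cell markers tested was called, while 13 of 133 immunoglobulin variable segments tested rose and none fell. Lyz2, the lysozyme of myeloid cells, stood at 623, 212 and 455 CPM in dKO libraries and 137, 18.1 and 149 CPM in WT libraries (adjusted p = 0.229). Erythroid markers held 3 rises among 20 (Hba-a2, Sptb and Alas2), natural killer (NK) and CD8 T cell markers 3 among 16 (Klrb1c, Gzma and Klrk1), and the basophil list 1 among 9 (Mcpt8). No member was called among markers of monocytes, dendritic cells, B cells, macrophages, platelets, stroma or MHC class II, and none of the 153 markers tested fell in the fit of 9 libraries. In the 6 libraries alone, 1 marker fell in each of the neutrophil, dendritic cell, MHC class II, erythroid and NK and CD8 lists. H2-Ob, of MHC class II, had 30.7, 33.7 and 31.3 CPM in dKO libraries and 64.2, 62.55 and 59.2 CPM in WT libraries. The platelet marker Gp1bb and the stromal markers Pdgfra, Ccl19 and Ccl21a were at 0 in all 9 libraries.

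In fits that held the Usp21 KO libraries, the 10 marker calls rested on few libraries. Without WT replicate 2, Gzma was the only 1 of the 10 markers called, and each of the 10 passed in at most 3 of the 6 fits without 1 library. With the replicate number as a block, 3 marker genes were called, 2 erythroid and 1 of NK and CD8 T cells. The lists of stromal markers (median log2 fold change 0.04) and MHC class II genes (0.20) had medians near 0, and the macrophage list a median of -0.25. More markers were called in the 6 libraries alone, where 8.38% of all genes rose. There 8 of 15 neutrophil, 6 of 20 erythroid, 4 of 9 basophil and 12 of 16 NK and CD8 T cell markers rose. Without WT replicate 2 in those libraries the counts were 9, 14, 4 and 7. In both fits each of these lists also held 1 fall, except the basophil list, which held none. In a fit with the mean score as a covariate, 134 genes were called, 61 higher and 73 lower, of which 118 were among the 866. The same covariate in the 6 libraries alone left 866 calls, 455 of them shared with the first 866, a fit chosen after seeing the data. The score separated the 2 genotypes by itself, so the covariate takes up part of any genotype difference. The part of other cells in the results that follow was not tested beyond these fits.

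**Figure D3:**
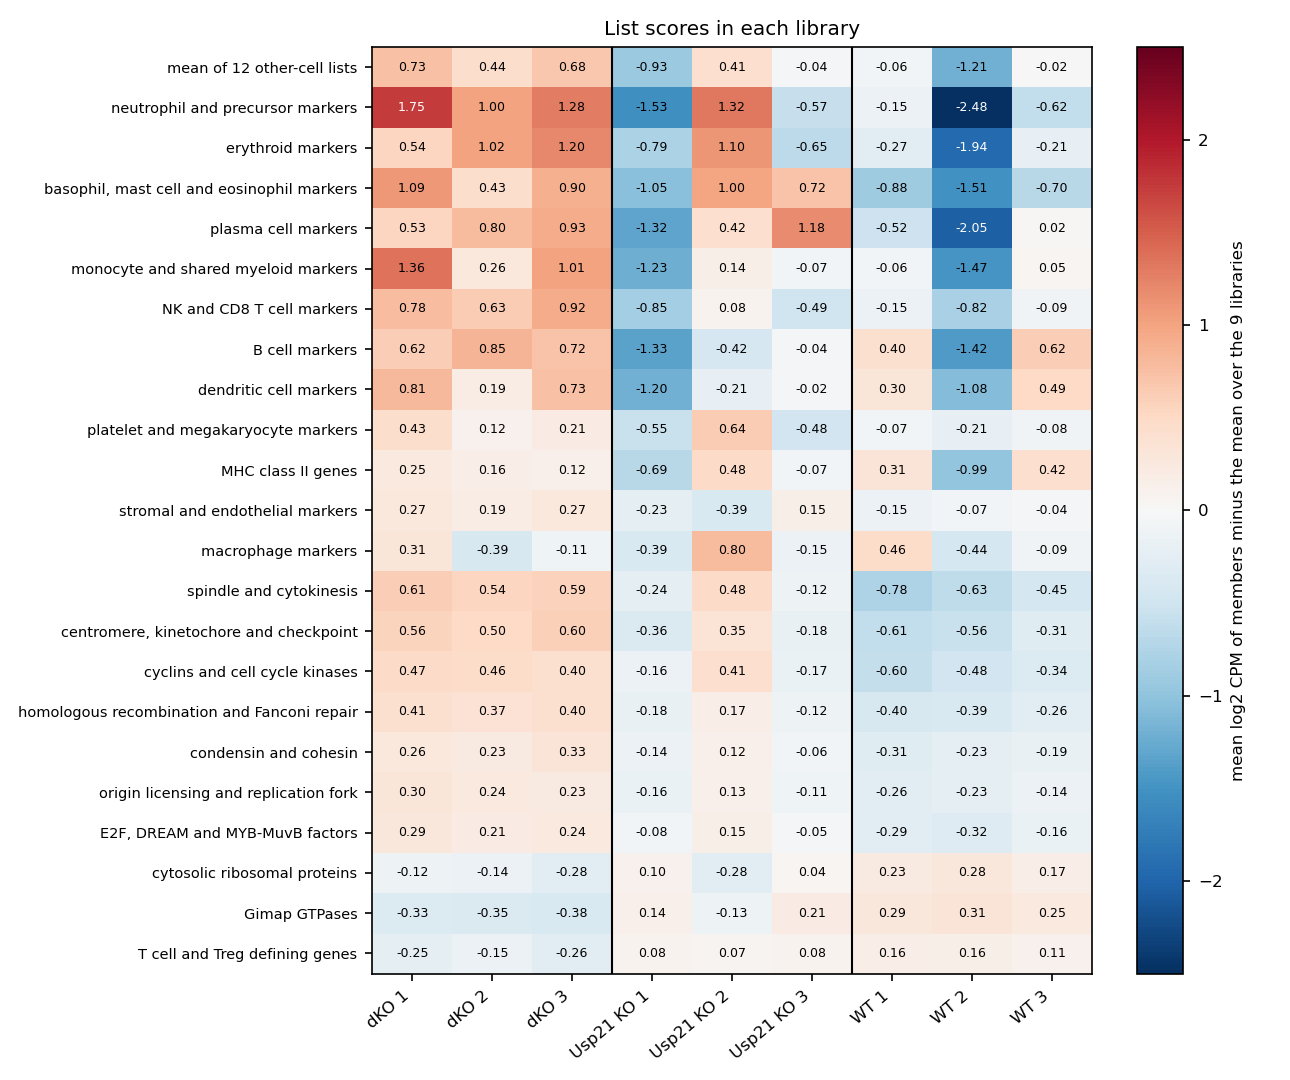
Score of each list (rows) in each library (columns), the mean over its members of log2 CPM minus the mean of the 9 libraries. In dKO libraries the other-cell mean was 0.73, 0.44 and 0.68 and the spindle list 0.61, 0.54 and 0.59. WT replicate 2, at -1.21 for other cells, had a spindle score of -0.63, between those of the other WT libraries. Usp21 KO replicate 2 was high in both, at 0.41 and 0.48, and Usp21 KO replicate 1 low in both, at -0.93 and -0.24.

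Genes of the kinetochore, the protein plate that ties chromosomes to the spindle, rose often. Of 47 tested, 29 rose and none fell, with a median log2 fold change of 1.06, against 3.01% of all genes higher. Cenpf (ENSMUSG00000026605, chromosome 1, 189640606 to 189688086), a kinetochore protein made late in the cycle, had 22.4, 21.9 and 26.2 CPM in dKO cells, against 4.53, 4.83 and 5.84 CPM in WT cells (2.21 ± 0.22, adjusted p = 0.00118). Its lowest dKO library was thus over the highest WT library by a wide margin. Bub1b, a kinase-like protein of the checkpoint that delays anaphase, had 36.3, 34.0 and 31.9 CPM in dKO cells and 9.29, 12.2 and 12.9 CPM in WT cells (1.57 ± 0.19, adjusted p = 0.00334). Spc25, a subunit of the microtubule-binding Ndc80 complex, rose by 1.64 ± 0.22, and the checkpoint gene Mad2l1 by 0.99 ± 0.14. Each of these 4 passed without any 1 library.

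Spindle and cytokinesis genes behaved alike, with 25 of 38 higher, none lower and a median of 1.37. Nusap1, which binds and bundles spindle microtubules, had 26.0, 21.2 and 22.9 CPM in dKO cells and 5.29, 6.05 and 6.95 CPM in WT cells (1.93 ± 0.23, adjusted p = 0.00277). Cit, the citron kinase of the cleavage furrow, had 21.8, 21.8 and 20.9 CPM in dKO cells and 7.34, 6.64 and 8.42 CPM in WT cells (1.52 ± 0.21, adjusted p = 0.00503). Kinesin motor genes, taken by the shared start of their names, held 12 rises and 1 fall among 29, and the mitotic motors Kif20a (1.35), Kif14 (1.92) and Kif18b (2.01) were among the rises. In Usp21 KO replicate 2, Kif18b reached 13.1 CPM, close to the 15.2, 14.4 and 13.9 CPM of dKO cells. Of the condensin and cohesin genes, which fold and hold chromosomes, 8 of 24 rose, among them the condensin subunit Ncapd2 at 148, 144 and 129.8 CPM in dKO cells and 46.0, 49.8 and 52.3 CPM in WT cells (1.51 ± 0.17, adjusted p = 0.00267), and Espl1, the separase that opens cohesin (1.99 ± 0.25, adjusted p = 0.0036).

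The size of these mitotic counts followed the fit. Over the 6 fits that each left out 1 dKO or WT library, between 8 and 16 kinetochore genes and between 12 and 21 spindle genes rose. Without WT replicate 2 the counts were 10 and 16, with medians of 0.98 and 1.42. With the other-cell score as a covariate they were 6 and 3, with medians of 0.65 and 1.00. In the 6 libraries alone, 34 and 29 rose, with the covariate in those libraries 24 and 26, and without WT replicate 2 in those libraries 34 and 30, none of the fits giving a fall. Of the 24 condensin and cohesin genes, 5 rose without WT replicate 2, between 4 and 6 with 1 library left out, 3 with the covariate and 8 in the 6 libraries alone, where 1 also fell.

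The DNA just before the start of such genes is shown because many mitotic genes carry the CCAAT box, bound by NF-Y, and the CHR element (TTTGAA), bound by the DREAM and MYB-MuvB complexes, near their start. The 5 sequences are the 150 bases before the RefSeq start (GRCm38.p6), each 5′ to 3′ along the gene's own strand, with CCAAT (or its complement ATTGG) and TTTGAA (or TTCAAA) in capitals. They are the kinetochore genes Cenpf, Bub1 and Cenpn and the spindle genes Aspm and Ckap2, chosen after seeing which promoters held these letters.
Cenpf, chr1:189688087-189688236, minus strand: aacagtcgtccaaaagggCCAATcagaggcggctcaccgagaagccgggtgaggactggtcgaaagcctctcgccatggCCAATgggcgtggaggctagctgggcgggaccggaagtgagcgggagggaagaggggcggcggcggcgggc
Bub1, chr2:127831860-127832009, minus strand: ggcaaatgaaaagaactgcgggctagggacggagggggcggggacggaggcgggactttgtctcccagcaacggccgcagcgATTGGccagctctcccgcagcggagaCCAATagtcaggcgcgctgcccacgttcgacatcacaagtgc
Cenpn, chr8:116921590-116921739, plus strand: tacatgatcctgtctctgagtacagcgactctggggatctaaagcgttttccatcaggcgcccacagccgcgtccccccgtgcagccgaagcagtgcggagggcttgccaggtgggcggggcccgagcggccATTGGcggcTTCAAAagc
Aspm, chr1:139454623-139454772, plus strand: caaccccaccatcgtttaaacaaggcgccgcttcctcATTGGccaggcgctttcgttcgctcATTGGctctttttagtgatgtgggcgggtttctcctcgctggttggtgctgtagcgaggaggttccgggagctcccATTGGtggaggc
Ckap2, chr8:22185820-22185969, minus strand: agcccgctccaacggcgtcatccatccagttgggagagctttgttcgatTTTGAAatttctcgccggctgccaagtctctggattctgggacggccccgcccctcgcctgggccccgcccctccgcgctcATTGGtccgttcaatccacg

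These 5 genes had log2 fold changes of 2.21 for Cenpf, 2.03 for Bub1, 1.31 for Cenpn, 1.99 for Aspm and 1.58 for Ckap2, and each passed without any 1 library. In the 250 bases before the start, 63.6% of 33 spindle promoters and 56.1% of 41 kinetochore promoters held CCAAT on some strand, against 36.7% of 10024 promoters of tested coding genes. The CHR letters were in 33.3% and 19.5% of the same promoters, against 10.8%. These shares describe letters in a window over all tested members with an entry, whether called or not, and say nothing of binding. Only 79.4% of the coding genes that rose and 78.0% of those that fell had an entry, so the planned shares over all genes called were void and are not given.

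DNA replication genes rose too, by smaller amounts. Of 41 genes of origin licensing and the fork, 13 rose and none fell, with a median of 0.35. The leading-strand polymerase gene Pole had 38.7, 33.9 and 33.0 CPM in dKO cells and 16.8, 15.1 and 18.7 CPM in WT cells (1.06 ± 0.11, adjusted p = 0.00141). Cdc45, a part of the replicative helicase, had 17.6, 17.6 and 16.7 CPM in dKO cells and 6.62, 8.004 and 8.62 CPM in WT cells (1.15 ± 0.15, adjusted p = 0.0036), and Lig1, the ligase that joins lagging-strand fragments, rose by 0.75 ± 0.11. Those 3 passed without any 1 library, and Mcm5, a helicase subunit (0.66), did so except without WT replicate 1 (adjusted p = 0.0547). With the replicate number as a block 8 of the 41 rose, with the covariate 2, with library totals 22 and in the 6 libraries alone 25. Between 3 and 8 rose with 1 library left out, 7 of them without WT replicate 2.

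Nucleotide synthesis genes held 5 rises among 30 and a median of 0.02. Among the rises were the ribonucleotide reductase subunits Rrm1 (0.81) and Rrm2 (1.77), Tyms of thymidylate synthesis (0.78) and the deoxycytidine kinase Dck (0.44). Without WT replicate 2, 1 of the 5 was called. The 20 replication-dependent histone genes held no call by edgeR, at a median of 0.56. In the 6 libraries alone 3 of them were higher and 1 lower.

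Repair of DNA by homologous recombination and the Fanconi pathway held 17 rises among 35 and no fall, with a median of 0.63. The checkpoint kinase gene Chek1 had 8.54, 7.72 and 9.50 CPM in dKO cells and 2.62, 3.32 and 3.39 CPM in WT cells (1.46 ± 0.21, adjusted p = 0.00514), and Clspn, the adaptor that activates it, 21.97, 21.1 and 19.7 CPM in dKO cells and 4.57, 4.28 and 5.54 CPM in WT cells (2.12 ± 0.30, adjusted p = 0.00645). Both passed without any 1 library. Excision, mismatch and end-joining repair differed from this, with 1 rise (Neil3, a glycosylase) and 1 fall (Ddb2, a sensor of ultraviolet damage) among 37 and a median of 0.04. With the covariate 1 recombination gene was called, in the 6 libraries alone 24 were, and with both of these choices 16. Between 6 and 12 rose with 1 library left out.

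Cyclins and cell cycle kinases held 14 rises among 27 and a median of 0.77. The mitotic kinase gene Aurka had 14.3, 11.97 and 11.4 CPM in dKO cells and 5.10, 4.98 and 5.97 CPM in WT cells (1.23 ± 0.19, adjusted p = 0.00636), and was the only 1 of the 14 to pass in all 6 fits without 1 library. Cdk1, the kinase that drives mitosis (1.74), was lost without WT replicate 1 or 2 (adjusted p up to 0.0684), and Ccna2, its cyclin A partner (2.09 ± 0.37), passed with WT replicate 3 left out and in none of the other 5 such fits (adjusted p up to 0.0934). Between 1 and 11 members of the list rose with 1 library left out, 3 of them without WT replicate 2, and none rose with the covariate in 9 libraries, against 16 with the covariate in the 6 libraries.

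Among the transcription factors that switch these genes on and off, 7 of 25 rose. Without WT replicate 2 the count was 3, with 1 library left out between 3 and 6, with the block 5, with the covariate 1 and in the 6 libraries alone 10. E2f1 had 17.97, 18.7 and 14.6 CPM in dKO cells and 5.002, 5.38 and 7.41 CPM in WT cells (1.52 ± 0.19, adjusted p = 0.00304). E2f2 had 194, 187 and 167 CPM in dKO cells and 94.8, 99.8 and 100.1 CPM in WT cells (0.89 ± 0.13, adjusted p = 0.00695). The repressor E2f7 rose by 2.02 ± 0.29, and all 3 passed without any 1 library. Inhibitors of the cycle were split. Cdkn1b, the inhibitor p27, was lower, at 192, 188 and 201 CPM in dKO cells and 255, 261 and 244 CPM in WT cells (-0.39 ± 0.06, adjusted p = 0.00676), and passed without any 1 library. Its fall was not called with the covariate, either in 9 libraries or in 6. Rbl1 (0.28), Cdkn2c (1.00) and Cdkn3 (1.44) were higher, but passed in none of the 6 fits without 1 library. Cdkn2c and Cdkn3 were also lost with the replicate block (adjusted p = 0.0699 and 0.0538).

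**Figure D4:**
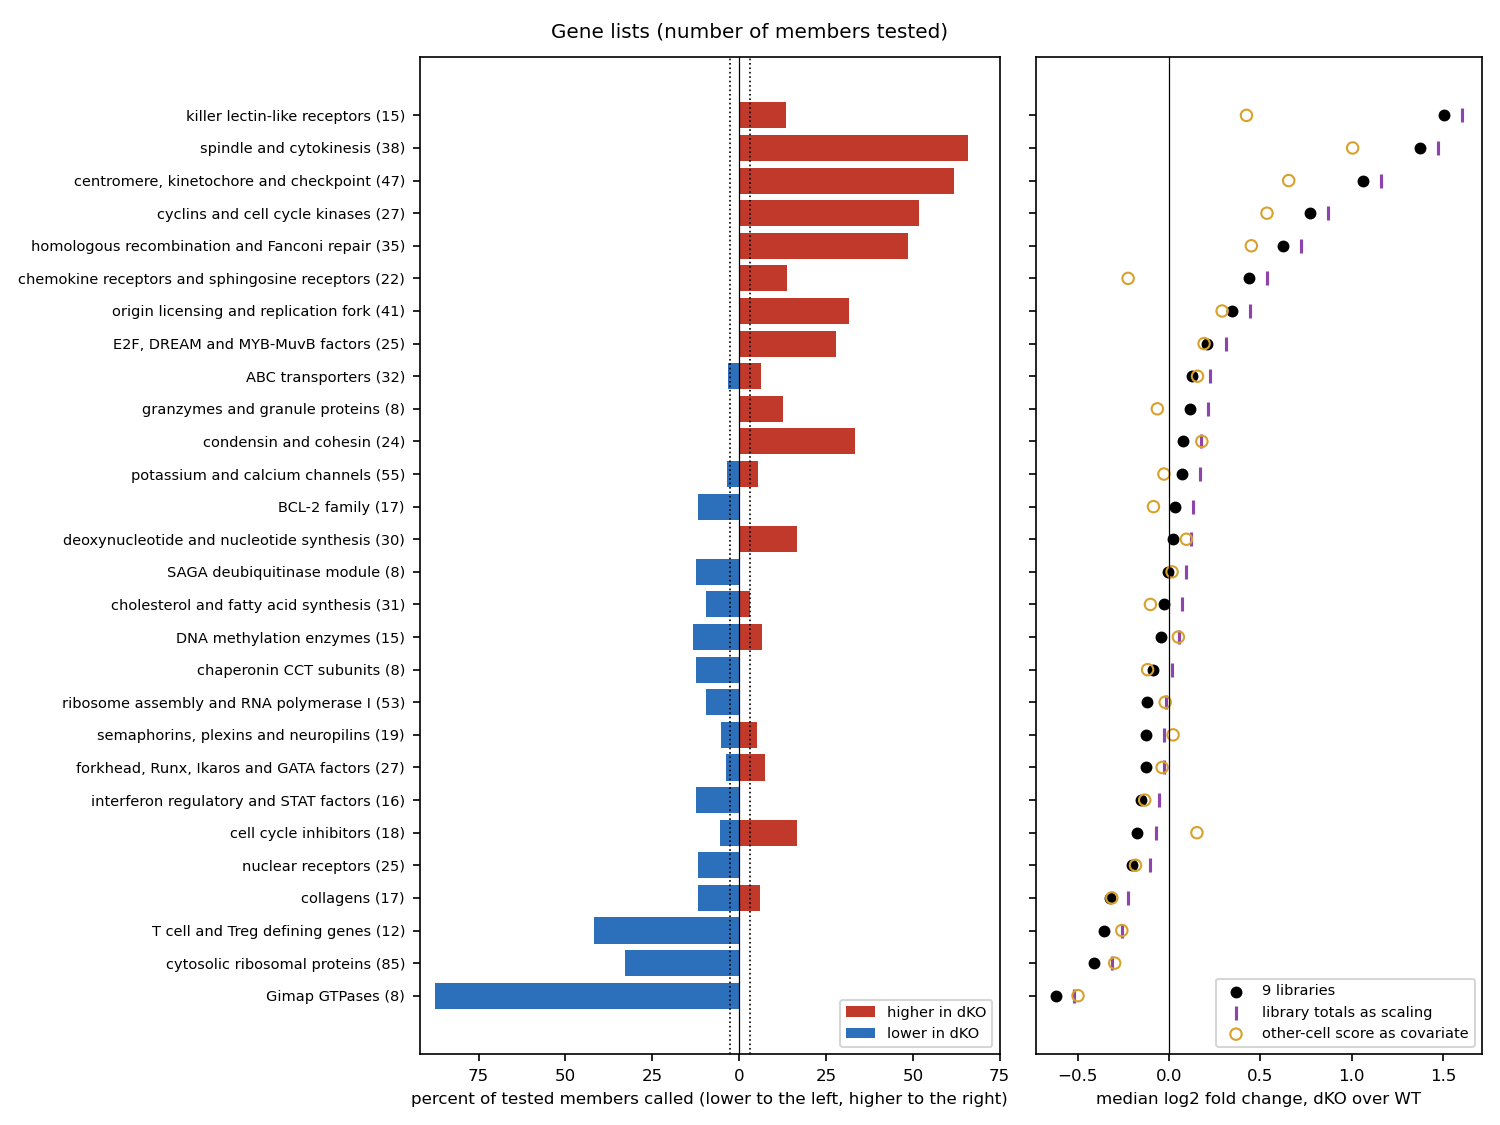
Left, percent of the tested members of each list called lower (blue, to the left) and higher (red, to the right), with dotted lines at the 2.77% and 3.01% of all genes. Right, median log2 fold change (dKO over WT) of each list in the fit of 9 libraries, with library totals as the scaling and with the other-cell score as a covariate, which put the spindle median at 1.37, 1.47 and 1.00 and the Gimap median at -0.62, -0.52 and -0.50.

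Rises outside the cell cycle included receptors, transporters and signalling genes of T cells. Slc43a1, a transporter of large neutral amino acids (ENSMUSG00000027075, chromosome 2, 84838850 to 84863594), had 28.5, 26.1 and 26.9 CPM in dKO cells and 9.19, 9.52 and 9.68 CPM in WT cells (1.52 ± 0.10, adjusted p = 8.98e-05). Scd2, a desaturase that makes monounsaturated fatty acids, had 242, 261 and 261 CPM in dKO cells and 143, 125 and 147 CPM in WT cells (0.88 ± 0.10, adjusted p = 0.00222). Ikzf3, the lymphoid factor Aiolos, had 459.9, 514 and 494 CPM in dKO cells and 320.3, 339.8 and 312 CPM in WT cells (0.59 ± 0.08, adjusted p = 0.0036). These 3 genes passed without any 1 library and with the other-cell covariate.

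The same held for 3 surface molecules. Dpp4, the peptidase CD26, had 179, 198 and 192 CPM in dKO cells and 127, 116 and 131 CPM in WT cells (0.61 ± 0.08, adjusted p = 0.00365). Ccr9, a receptor for the gut chemokine CCL25, had 41.5, 33.9 and 31.1 CPM in dKO cells and 18.6, 17.2 and 17.4 CPM in WT cells (1.00 ± 0.12, adjusted p = 0.00277). Cxcr5, the receptor that guides cells to B cell follicles, had 154, 177 and 169.6 CPM in dKO cells and 90.5, 79.4 and 90.6 CPM in WT cells (0.94 ± 0.11, adjusted p = 0.00267). With S1pr5, a sphingosine receptor at 1.87, 1.71 and 1.62 CPM in dKO cells and 0.429, 0.148 and 0.455 CPM in WT cells, they were the 3 rises among 22 chemokine and sphingosine receptors tested. S1pr5 passed in no fit without 1 library, nor with the block (adjusted p = 0.0561).

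Among the rises with the most reads, Itgal, the alpha chain of the integrin LFA-1, had 1744, 1826 and 1774 CPM in dKO cells and 1529, 1465 and 1434 CPM in WT cells (0.27 ± 0.07, adjusted p = 0.0452). This small rise was lost without any 1 of the 6 libraries (adjusted p between 0.109 and 0.155) and with the block (0.0826). Endod1, a gene with a nuclease domain, had 171, 175 and 183 CPM in dKO cells and 117, 117 and 122 CPM in WT cells (0.57 ± 0.09, adjusted p = 0.0061) and passed without any 1 library. Adcy7, an adenylate cyclase (0.39), the phosphatase gene Ptpn11 (0.37), Topbp1, an activator of the replication checkpoint (0.31), and the nuclear RNA gene Neat1 (0.42) were called in the fit of 9 libraries. Among the fits without 1 library, Adcy7 was lost in the 1 without WT replicate 1 (adjusted p = 0.0547), while Neat1 was lost in all 6 and with the block (adjusted p = 0.0538). The proliferation marker Mki67 had 221, 199 and 208 CPM in dKO cells, 104, 245 and 109.9 CPM in Usp21 KO cells and 64.1, 63.4 and 83.4 CPM in WT cells. Its rise over WT (1.57 ± 0.33, adjusted p = 0.0355) was lost with the block (0.0619) and without any 1 of the 6 libraries, and Usp21 KO replicate 2 was above every dKO library.

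**Figure D5:**
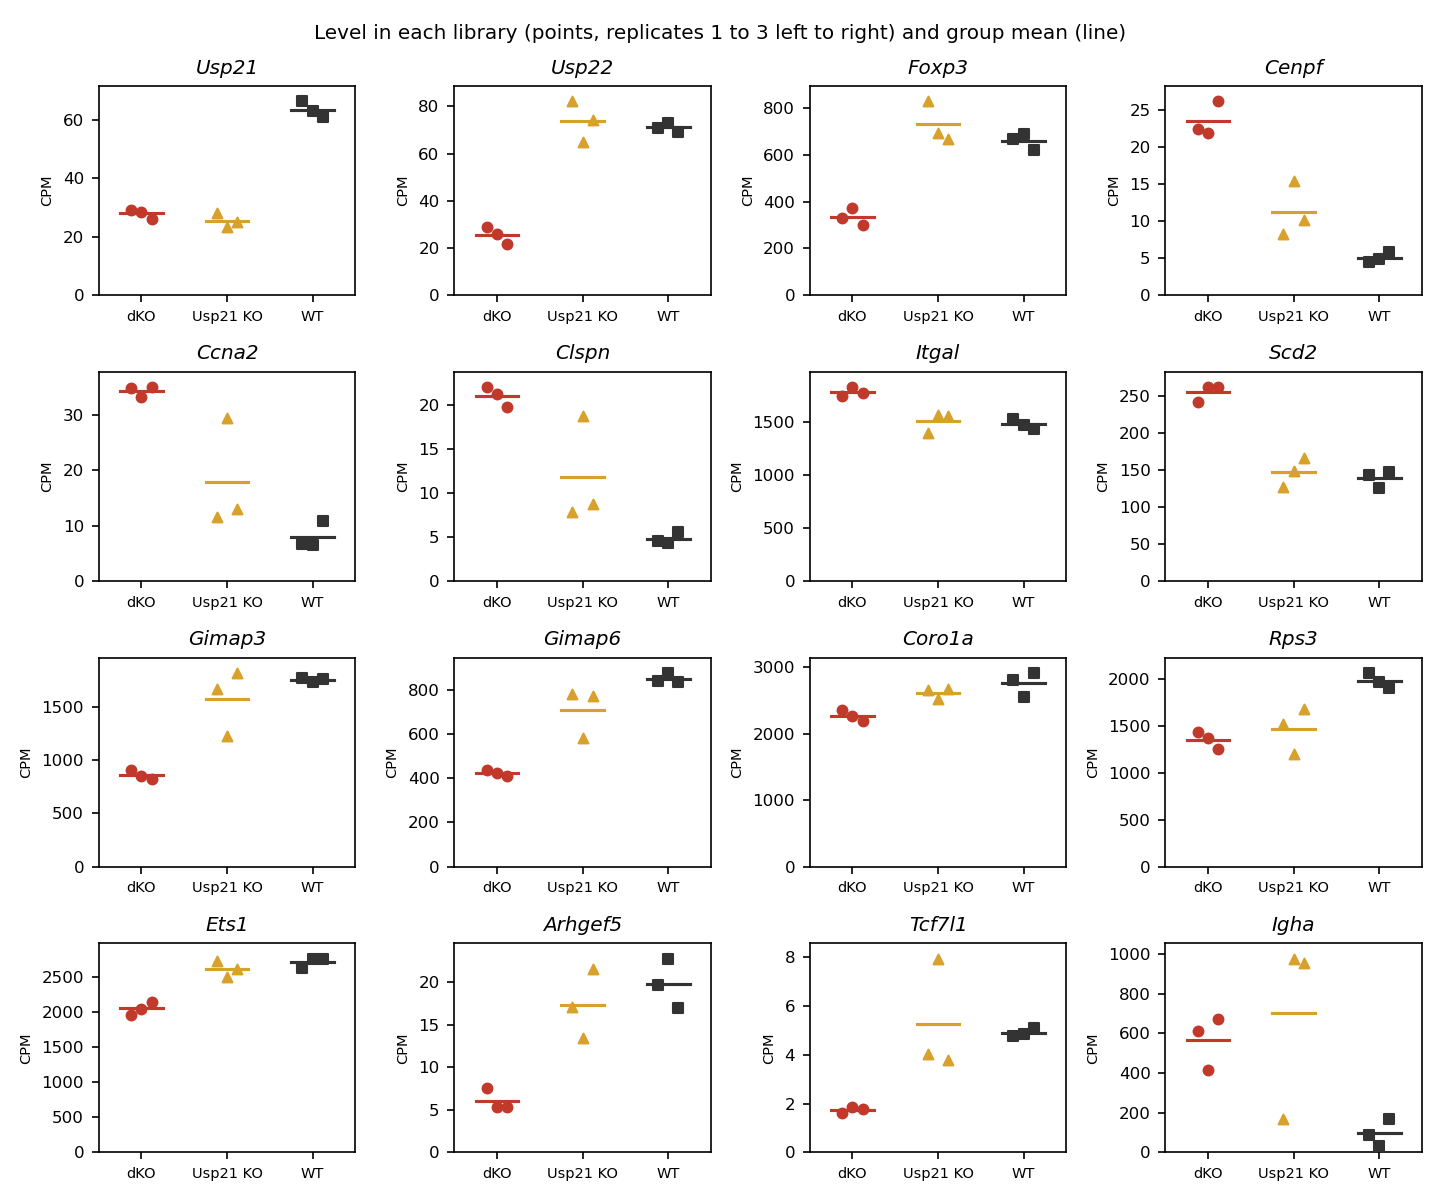
CPM of 16 genes in each library (points) with the group mean (line), dKO at the left, Usp21 KO in the middle and WT at the right, each axis starting at 0. Gimap3 lay between 822 and 904 CPM in dKO and between 1730.5 and 1767 CPM in WT cells, while Igha lay between 416 and 673 CPM in dKO and between 31.2 and 170.4 CPM in WT cells.

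The Gimap genes, a family of GTPases that support the survival of resting lymphocytes, fell together. Of 8 tested, 7 fell and none rose, with a median of -0.62, against 2.77% of all genes lower. Gimap3 had 904, 854 and 822 CPM in dKO cells, against 1767, 1730.5 and 1758 CPM in WT cells (-1.03 ± 0.12, adjusted p = 0.00267). Gimap6 (ENSMUSG00000047867, chromosome 6, 48701582 to 48708225) had 436, 425 and 409.5 CPM in dKO cells and 842, 877 and 834 CPM in WT cells (-1.01 ± 0.10, adjusted p = 0.00141). The dKO levels of Gimap6 were about as tight as its WT levels, while those of Gimap3 were more spread. Neither gene had an overlap between dKO and WT libraries. Gimap4 (-0.76), Gimap9 (-0.64), Gimap8 (-0.59), Gimap1 (-0.40) and Gimap5 (-0.34) fell as well, Gimap5 being lost with the block (adjusted p = 0.0711). Between 6 and 7 were called with 1 library left out, 6 with library totals, 3 with the covariate and 6 with the covariate in the 6 libraries. The genes lie side by side, and members with similar sequence may share reads.

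Cytosolic ribosomal protein genes, which make up the translating ribosome, held 28 falls among 85 tested and no rise. The median was -0.41, and 6 of the 85 had positive fold changes. Rps3, of the small subunit, had 1433, 1370.1 and 1249 CPM in dKO cells and 2064, 1963 and 1904 CPM in WT cells (-0.55 ± 0.11, adjusted p = 0.0203), and Usp21 KO cells had 1523, 1206 and 1681 CPM. Rpl29, of the large subunit, stood at 16.2, 15.0 and 15.1 CPM in dKO cells and 38.6, 37.0 and 36.2 CPM in WT cells (-1.27 ± 0.08, adjusted p = 9.85e-05), and it passed without any 1 library and with the covariate. Its level was far below that of Rps3 and its fall larger than the median of the list, so it does not stand for the list. Rps3 passed in no fit without 1 library (adjusted p between 0.055 and 0.1). Many processed copies of these genes exist in the genome, so the level of a single one is uncertain.

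The count of ribosomal falls was among the least stable. It was 17 with the replicate block, 14 with library totals, 2 with the covariate, between 3 and 11 with 1 library left out and 5 without WT replicate 2. In the 6 libraries alone it was 47, with the covariate in those libraries 31 and without WT replicate 2 in those libraries 46. The median stayed near its value, at -0.31 with library totals, -0.30 with the covariate and -0.42 without WT replicate 2. Other parts of the translation machinery were nearer to level. Mitochondrial ribosomal proteins held 1 fall among 77 (median -0.01), initiation and elongation factors 3 falls among 63 (-0.08), and ribosome assembly with RNA polymerase I 5 falls among 53 (-0.12).

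Genes that define T cells and Treg cells were lower as a group. All 12 tested had negative fold changes (median -0.36), and 5 were called, namely Foxp3, the T cell receptor and CD3 genes Trac, Cd3g and Cd3d, and Tnfrsf18, which encodes GITR. Trac had 834, 857 and 867 CPM in dKO cells and 1221, 1132 and 1165 CPM in WT cells (-0.46 ± 0.07, adjusted p = 0.00645) and passed without any 1 library. Cd4 was not called, at 1076, 1063 and 1099.7 CPM in dKO cells and 1173, 1084 and 1161 CPM in WT cells (adjusted p = 0.614), nor was Cd3e, at 512, 526 and 489.5 CPM in dKO cells and 558, 531 and 552 CPM in WT cells (adjusted p = 0.367). With the replicate block 3 of the 5 were called, and Cd3g and Cd3d were lost (adjusted p = 0.0556 and 0.0644). In 9 libraries with the covariate 3 fell, with library totals 2, and in the 6 libraries with and without the covariate 6. Counts from sorted cells in bulk cannot tell fewer cells of a type from less RNA of that type per cell.

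Among the falls with the most reads, Shisa5, an endoplasmic reticulum protein linked to p53-dependent death, had 2218, 2311 and 2288 CPM in dKO cells and 3256, 3274 and 3326 CPM in WT cells (-0.53 ± 0.06, adjusted p = 0.00199). Ets1, a transcription factor of resting lymphocytes, had 1968, 2043 and 2154 CPM in dKO cells and 2630.2, 2765 and 2759 CPM in WT cells (-0.40 ± 0.07, adjusted p = 0.00855). Both passed without any 1 library and with library totals. Stat5b, which signals from the interleukin-2 receptor, had 306, 299 and 299 CPM in dKO cells and 408, 417 and 414 CPM in WT cells (-0.45 ± 0.05, adjusted p = 0.00267). Zfp36l1, which promotes decay of messenger RNA and quiescence in lymphocytes, had 199, 207 and 191 CPM in dKO cells and 292, 319 and 276 CPM in WT cells (-0.57 ± 0.07, adjusted p = 0.00328). Bid, a killer protein of the BCL-2 family, had 50.1, 50.9 and 50.7 CPM in dKO cells and 68.1, 71.7 and 70.1 CPM in WT cells (-0.47 ± 0.06, adjusted p = 0.00304), and these 3 also passed without any 1 library and with the covariate. Coro1a (-0.28 ± 0.07, adjusted p = 0.0447) and Myh9 (-0.37 ± 0.09, adjusted p = 0.0414) were lost without any 1 of the 6 libraries, and Coro1a also with the block (0.0711).

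Genes of the ubiquitin system were called about as often as all genes tested (5.78%). The share was 6.98% of Usp genes, with the targeted Usp21 and Usp22 among those called. It was 5.97% of F-box and Cullin ligase genes and 5.45% of RING ligases. Rnf43, a membrane ubiquitin ligase that removes Wnt receptors, had 38.6, 43.5 and 33.3 CPM in dKO cells and 87.8, 97.5 and 82.8 CPM in WT cells (-1.22 ± 0.16, adjusted p = 0.0045). Fbxo17, an F-box subunit of cullin ligases, had 6.27, 6.15 and 6.09 CPM in dKO cells and 18.6, 15.0 and 16.2 CPM in WT cells (-1.42 ± 0.14, adjusted p = 0.000872). Both passed without any 1 library, and Fbxl12 (-0.50), of the same class, did too. Of the 43 Usp deubiquitinase genes tested, Usp3 (-0.57) was the only other one called, and it passed in no fit without 1 library. RING ligases named Rnf or Trim held 1 rise and 5 falls among 110, and of the 8 genes of the SAGA deubiquitinase list Usp22 alone was called by edgeR.

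Among genes that fell, the median log2 fold change was -2.34 in the group of 5 with the fewest reads and -0.40 in the one with the most. Arhgef5, a guanine nucleotide exchange factor, had 7.62, 5.32 and 5.35 CPM in dKO cells and 19.7, 22.8 and 17.0 CPM in WT cells (-1.70 ± 0.21, adjusted p = 0.00274). Tcf7l1, a relative of the T cell factor TCF-1 that acts in Wnt signalling, had 1.63, 1.86 and 1.76 CPM in dKO cells and 4.76, 4.87 and 5.08 CPM in WT cells (-1.49 ± 0.28, adjusted p = 0.0158), but passed in no fit without 1 library (adjusted p between 0.0533 and 0.0749). Col27a1, a fibrillar collagen (-1.66), Sec16b, of the endoplasmic reticulum exit sites (-1.60), Alpk3, an alpha-kinase (-1.58), the small GTPase gene Rhod (-1.56), and Pam, which amidates peptides (-1.51), were also called. Rhod and Pam passed in none of the 6 fits without 1 library and Alpk3 in 1, while Col27a1 was lost without dKO replicate 3 (adjusted p = 0.0536) and Sec16b without WT replicate 1 (0.0583). Csf1, the growth factor of macrophages, had 34.1, 32.8 and 32.4 CPM in dKO cells and 65.9, 60.0 and 57.4 CPM in WT cells (-0.88 ± 0.07, adjusted p = 0.000267), and Cd2, an adhesion receptor of T cells, 529, 516 and 500.4 CPM in dKO cells and 759, 689.5 and 716 CPM in WT cells (-0.49 ± 0.06, adjusted p = 0.00371). Csf1 and Cd2 were picked outside the naming rule, with their values known, and both passed without any 1 library.

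In the fit of 9 libraries, most other pathways stood near or under the background of all genes, 5.78% called. Proteasome subunits (37 tested), Mediator subunits (32), interleukin receptors (33), genes of the TGF-beta and BMP pathway (28), of the Notch and Wnt pathways (31), of the unfolded protein response (28) and of glutathione and thioredoxin (34) held no call by edgeR, with medians between -0.09 and 0.04. In the 6 libraries alone, each of these lists had between 2 and 9 calls, where 15.7% of all genes were called. Proteasome and Mediator subunits were below that share and the other lists above it, with 5 rises and 4 falls among the 33 interleukin receptors. Nuclear-encoded subunits of oxidative phosphorylation held 2 falls among 78 (median -0.03), solute carriers 8 rises and 3 falls among 234 (0.06), and zinc finger genes named Zfp 1 rise and 5 falls among 325 (-0.01). Above the background, at 12.9% called, cholesterol and fatty acid genes held 1 rise, that of Scd2, and 3 falls among 31. The sterol regulator Srebf2 (-0.34) was among the falls. Nuclear receptors, also above it at 12% called, held 3 falls among 25. They were the mineralocorticoid receptor gene Nr3c2 (-0.98), the thyroid receptor gene Thra (-0.44) and the retinoic acid receptor gene Rara (-0.40). None of these 3 was called with the covariate.

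The immediate early factors, which dissociation and handling of cells can induce, were lower in median. Of 25 tested none passed by edgeR, and the median was -0.51, against -0.12 without WT replicate 2. Jun had 421, 435 and 319.7 CPM in dKO cells and 647, 1556 and 568 CPM in WT cells (adjusted p = 0.186), so that WT replicate 2 stood far above the other WT libraries. With the other-cell score as a covariate the median of the list was 0.32. In the 6 libraries with that covariate, 5 members were higher.

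Gene families formed by the shared start of symbols gave few groups beyond those fixed in lists. Among families with at least 10 tested members, 11 had at least 3 members called and at least 3 times the background. Of these, Kif, Mcm, Rad, Cdkn and Cdc belong to the cycle and Rps and Rpl to the ribosome. The others were Dock, exchange factors for Rac and Cdc42, with 3 falls among 10 (Dock9, Dock6 and Dock8), Ptpn phosphatases with 1 rise and 2 falls among 16, Stk kinases with 1 rise and 2 falls among 17, and Ly antigens with 1 rise and 2 falls among 12. Dock8 had 549.6, 551 and 553 CPM in dKO cells and 673, 629 and 662 CPM in WT cells (-0.25 ± 0.06, adjusted p = 0.0408) and was lost with the block (0.0811).

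Genes near the targeted genes were called about as often as others. Within 2 Mb of Usp21 lay 61 tested genes, 2 higher and 2 lower, within 2 Mb of Usp22 73, 1 higher and 2 lower, and within 2 Mb of Foxp3 38, 1 higher and 2 lower, the targeted genes left out. Runs of at least 3 neighbouring tested genes called in the same direction numbered 4. One was the Gimap cluster on chromosome 6, from 48626764 to 48708225, with AI854703, Gimap8, Gimap9, Gimap4 and Gimap6, all lower. The others were Hdac9, Prps1l1 and Snx13 on chromosome 12, lower, Mcl1, Adamtsl4, Ecm1 and Tars2 on chromosome 3, lower, and Frmd4a, Prpf18 and Sephs1 on chromosome 2, higher. Ecm1, which encodes a secreted matrix protein, had 142, 120.5 and 135 CPM in dKO cells, 219.9, 99.3 and 194 CPM in Usp21 KO cells and 298, 297 and 285 CPM in WT cells (dKO over WT -1.15 ± 0.25, adjusted p = 0.0393). By autosome, the share of genes that rose was highest on chromosome 9 (4.50%) and the share that fell highest on chromosome 15 (4.84%) and lowest on chromosome 16 (0.42%).

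The genes that rose and fell also differed in length and base composition. Among coding genes, the median exonic length was 5231 bases for the 403 that rose, 4273 bases for the 387 that fell and 4456 bases for all 12445 tested. The median GC content of the longest annotated transcript of each gene was 47.7% for those that rose, 53.1% for those that fell and 49.8% for all. Whether length or GC content bears on the counts of these libraries was not tested.

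To see which changes went beyond loss of Usp21 alone, dKO was set against Usp21 KO in the same fit. In that comparison 735 genes (4.90%) were called, 255 higher (1.70%) and 480 lower (3.20%). Of the 866 genes called against WT, 369 were called against Usp21 KO in the same direction, 129 of 451 rises and 240 of 415 falls, and none in the opposite direction. The comparisons share the dKO libraries, so their overlap is not independent support. Scd2 (0.79, adjusted p = 0.00338), Dpp4 (0.64, adjusted p = 0.00338), Slc43a1 (1.54, adjusted p = 8.33e-05), Ccr9 (1.61, adjusted p = 0.000213), Shisa5 (-0.57, adjusted p = 0.00122), Stat5b (-0.52, adjusted p = 0.00122), Rnf43 (-1.36, adjusted p = 0.00338), Gimap6 (-0.75, adjusted p = 0.00508) and Foxp3 (-1.13, adjusted p = 0.000543) differed between dKO and Usp21 KO as well.

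The cell cycle and ribosome groups were counted in the same way. None of the 38 spindle genes and none of the 27 cyclins and kinases was called between dKO and Usp21 KO by edgeR, with medians of 0.56 and 0.42. That count came from a fit holding Usp21 KO replicate 2. Without that library the comparison gave 2192 calls over all genes in place of 735. The lists were not counted in that fit, so the lack of calls may rest on 1 library. Of the kinetochore genes 5 of 47 were called higher, of the recombination genes 5 of 35 and of the replication genes 7 of 41, against 1.70% of all genes. Of the 85 ribosomal protein genes 1 was called higher and 1 lower, with a median of -0.11, and Usp21 KO over WT had a median of -0.31. Usp21 KO replicate 2 had a spindle score of 0.48, near the 0.61, 0.54 and 0.59 of dKO libraries, while the other 2 Usp21 KO libraries had -0.24 and -0.12. The same library had a ribosomal score of -0.28, against -0.12, -0.14 and -0.28 in dKO libraries, and an other-cell score of 0.41.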

How the data were processed

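RNA was extracted from sorted YFP-positive spleen Treg cells with the RNeasy Micro kit, per the labels' protocols. The deposited table holds raw counts per gene for 9 libraries made by the authors, and cutadapt 1.13, STAR, HTSeq 0.6.1p1, DESeq2 1.14.1 and mm10 are named in the submitters' processing notes. The strand option of counting is not given in the sources used here, so reads of overlapping and antisense genes cannot be told apart. Symbols and coordinates came from the deposited table and GENCODE M21, in which 54165 of 54232 gene IDs were found.

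Counts were tested with edgeR 4.0.16 in R 4.3.3 (filterByExpr by group, TMM, robust quasi-likelihood fit over all 9 libraries, Benjamini-Hochberg adjustment). DESeq2 1.42.0 and limma 3.58.1 were alternatives, and figures were drawn with matplotlib 3.10.9. The procedure was tested on simulated data. Total counts ran from 18067377 to 40334577, and no pair of libraries agreed within sampling noise. The p-values measure the spread among 3 biological samples a group, estimated over all 3 groups together, Usp21 KO included. Without Usp21 KO replicate 2 the calls between dKO and WT rose from 866 to 2340. Each fit that left out 1 dKO or WT library kept that library, except where the 6 libraries are named.

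List scores were means of log2 CPM (prior count 1) centred on the 9 libraries. Genes were named by rule: the targeted genes and Foxp3, the 20 largest rises and 20 largest falls among called genes with no overlap of dKO and WT libraries and a mean log2 CPM of at least 1, the 12 most abundant called genes in each direction, up to 4 called members of each list or 2 where none was called, up to 4 members of each family described and the members of each run. From these the text gives a selection. Outside the rule, with values known, stand Csf1, Cd2, Cd4, Cd3e, Gimap1, Gimap5, Tyms, Lyz2, Aspm, Bub1, Cenpn, Ckap2, Gm13394, Sh3tc2 and the markers at 0, Gp1bb, Pdgfra, Ccl19 and Ccl21a. The comparison, lists and rule were chosen with earlier results of these data known.

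Same-numbered dKO and WT libraries deviated together from their group means (correlations 0.112, 0.239 and 0.113), each over 0.1, so the numbers were taken as a possible pairing. The highest correlations between libraries of different number were 0.090, -0.141 and 0.048 for these groups. They reached 0.245 between dKO and Usp21 KO and 0.480 between Usp21 KO and WT. Correlations of this size therefore cannot establish a pairing. The labels do not say what the number marks. Same-numbered dKO and Usp21 KO libraries had correlations of -0.106, -0.133 and 0.0657. The fit of 9 libraries that gave the calls held no block, so it used no pairing. Where a gene is given as lost with the block, the block was set over all 9 libraries, Usp21 KO included. Same-numbered Usp21 KO and WT libraries had correlations of -0.256, -0.266 and 0.157. In the 6 libraries, the block lost 0 of the 224 named genes called. Promoters came from RefSeq (GRCm38.p6), with entries for 79.4% of coding genes that rose and 78.0% of those that fell, so motif shares over those sets were void. A few genes counted in the lists are not reported here by name.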

Additional observations from a re-analysis of the deposited data

How the results depend on the processing

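Against 866 genes called between dKO and WT (451 higher, 415 lower), DESeq2 called 1502 (815 and 687), the 6 dKO and WT libraries alone 2315 (1232 and 1083), the other-cell covariate 134 (61 and 73) and a test against a 1.2-fold change 291 (195 and 96). Library totals gave 807 higher and 236 lower. Fits added after seeing the data, all in the 6 libraries, called 2961 with the replicate block (1630 and 1331), 2080 without WT replicate 2 (1150 and 930) and 2687 with library totals (2034 and 653). Leaving out 1 of the 9 libraries gave between 193 and 2340 calls, between 107 and 1157 higher and between 86 and 1183 lower. The replicate block in 9 libraries called 606, of which 561 were among the 866. Between dKO and Usp21 KO, DESeq2 called 1598, the block 461 and the 1.2-fold test 153 in place of 735. Leaving out 1 library gave between 168, without dKO replicate 3, and 2192, without Usp21 KO replicate 2. That comparison could not be run in the 6 libraries alone, which hold no Usp21 KO library. The cause of these differences was not tested.

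Of 258 genes under the naming rule, 224 were called. Of these, 56 were lost with the replicate block in 9 libraries and 0 with it in 6, 176 with the covariate in 9 libraries and 78 with it in 6, and 42 with library totals, while 68 passed without any 1 of the 6 libraries. Fold changes turned sign with the covariate for 8 genes. The log2 values were -0.0019 for Cd22, -0.0585 for H2-DMa, -0.26 for Vwf and -0.18 for Itgb3 in 9 libraries, and -0.33 for Slc11a1, -0.0424 for Cd22, -0.0129 for H2-DMa, -0.0185 for Vwf, 0.19 for Tgif1, 0.0686 for Ier5 and 0.14 for Jun in 6. The 100-base promoter window and summed CPM of markers changed no description. Depth limits genes with few reads, where 1 count in a library moves a fold most.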

Other observations

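Pianp, which encodes a membrane protein that binds PILR-alpha, was at 0.215, 0.147 and 0.353 CPM in dKO cells, 36.4, 2.82 and 43.3 CPM in Usp21 KO cells and 83.2, 77.5 and 84.3 CPM in WT cells. The pseudogene Gm13394 had the same order, at 0.0307, 0.0977 and 0.0882 CPM in dKO cells, 33.3, 2.01 and 33.1 CPM in Usp21 KO cells and 70.9, 68.8 and 68.2 CPM in WT cells. In both, Usp21 KO replicate 2 stood well below the other 2 Usp21 KO libraries.

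Sh3tc2, an adaptor protein gene known from peripheral nerve, was at 7.87, 1.03 and 297 CPM in dKO cells, 0.471, 1.63 and 0.451 CPM in Usp21 KO cells and 0.476, 0 and 0.607 CPM in WT cells (adjusted p = 0.102 by edgeR's quasi-likelihood test). Its high value rests on dKO replicate 3.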
